A study of Mus musculus with 9 samples.

Results

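The genes that write, copy, read and erase DNA methylation were followed across 3 forms of MCEC, an established line of mouse cardiac endothelial cells. The set was the 9 genes Dnmt1, Dnmt3a, Dnmt3b, Uhrf1, Uhrf2, Tet1, Tet2, Tet3 and Mbd2, taken by symbol from a table of 55487 genes. All 9 passed the filter on low counts, as did 16955 genes in all, so all 9 were tested. WT denotes unmodified MCEC, KD denotes MCEC with Zbtb46 knocked down, and OE denotes MCEC with enforced Zbtb46 overexpression, each with 3 libraries of poly-A RNA. Zbtb46 encodes a zinc finger transcription factor with a BTB domain. How the 2 modified lines were made, whether each is a single clone, and whether the 3 libraries of a group came from separate cultures are not given in the sources used here. The p-values therefore measure only the spread between these libraries, and no library from cells with a control vector was analysed here.

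In mammals most DNA methylation sits on the cytosine of CpG, a cytosine followed by a guanine. DNMT3A and DNMT3B place new methyl groups, and DNMT1, brought to freshly replicated DNA by UHRF1, copies the existing pattern onto the new strand. TET1, TET2 and TET3 oxidise methylcytosine, which opens the way to its removal, and MBD2 binds methylated CpG and recruits a histone deacetylase complex. Promoters rich in CpG are usually unmethylated, and their methylation goes with lasting silencing, which makes these genes a background for genes found fully on in one line and off in another. RNA levels do not measure methylation, which was not assayed in these libraries.

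Total counts ran from 39491828 to 55745849 per library. Ribosomal RNA features took 7.438% to 17.31% of the counts in WT, 9.547% to 11.96% in KD and 14.41% to 18.21% in OE. Zbtb46 itself, as counts scaled with TMM to a common library total (CPM), was at 13.65 ± 0.623 CPM in WT (SD, n = 3), at 11.24 ± 0.537 CPM in KD and at 191.4 ± 2.67 CPM in OE, so that the KD libraries held 17.6% less than WT. Of 13 endothelial markers, Erg was at 0 in every library and Pecam1, Cdh5, Emcn, Cldn5, Vwf and Tie1 reached at most 10 counts in any library, while Eng (125 CPM in WT) and Flt1 (17.2 CPM) were present. The 13 markers, most of it Eng, summed to 147 to 160 CPM in WT, 124 to 131 in KD and 107 to 118 in OE. Eng was at 108 CPM in KD and 84.9 in OE. Flt1 was at 12.1 CPM in KD but at 21.9 in OE, above WT, so the sum mainly follows 1 gene. The 8 fibroblast and smooth muscle markers, almost all of it Col1a1, summed to 5120 to 5690 CPM in WT, 4850 to 4920 in KD and 4040 to 4130 in OE, and the 5 epithelial markers, mostly Krt14, to 508 to 583, 581 to 602 and 429 to 435 CPM. The 7 leukocyte markers summed to at most 5.73 CPM and the 6 cardiomyocyte markers to at most 2.75 CPM, with Ptprc at no more than 2 counts and Myh6 at 0 in every library. These sums moved between the groups in which the methylation genes were compared, and their part in the differences was not tested. In bulk RNA, fewer cells of a type and less RNA per cell cannot be told apart.

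Levels of different genes were compared as CPM per kilobase of merged exon (RPKM). In WT the copying machinery led, with Dnmt1 at 56.8 ± 1.59 RPKM (SD, n = 3) and Uhrf1 at 50.9 ± 1.62. Mbd2 followed at 15.1 ± 0.35, Uhrf2 at 13 ± 0.418, Tet3 at 8.85 ± 0.227 and Dnmt3a at 5.62 ± 0.498. The bottom of the order held Dnmt3b at 0.995 ± 0.291, Tet2 at 0.894 ± 0.179 and Tet1 at 0.0262 ± 0.00876 RPKM. Neighbours in this order did not overlap in their 3 libraries, except Dnmt3b and Tet2. KD had the same order with no overlap between neighbours. OE had another one: Uhrf1, at 53.9 ± 2.16 RPKM, stood above Dnmt1, at 44.5 ± 0.6, and Tet3, at 11.5 ± 0.227, was level with Uhrf2, at 11.3 ± 0.202, within the spread of the libraries.

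By RPKM, 1 gene held most of the RNA of each family in these cells. These are shares of RNA per length, and enzyme activity was not measured. Dnmt1 made up 89% to 90.6% of the summed RPKM of the 3 DNA methyltransferase genes in WT, 90.4% to 91% in KD and 87.1% to 88.1% in OE. Tet3 made up 89.2% to 92.2% of the summed TET level in WT, 91.3% to 92.4% in KD and 91.1% to 91.6% in OE. The summed TET level was 9.41 to 10.2 RPKM in WT, 9.54 to 10.2 in KD and 12.5 to 12.9 in OE. Uhrf1 held 78.9% to 80.8% of the Uhrf1 and Uhrf2 total in WT, 78.3% to 78.7% in KD and 81.8% to 83.5% in OE.

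**Figure D1:**
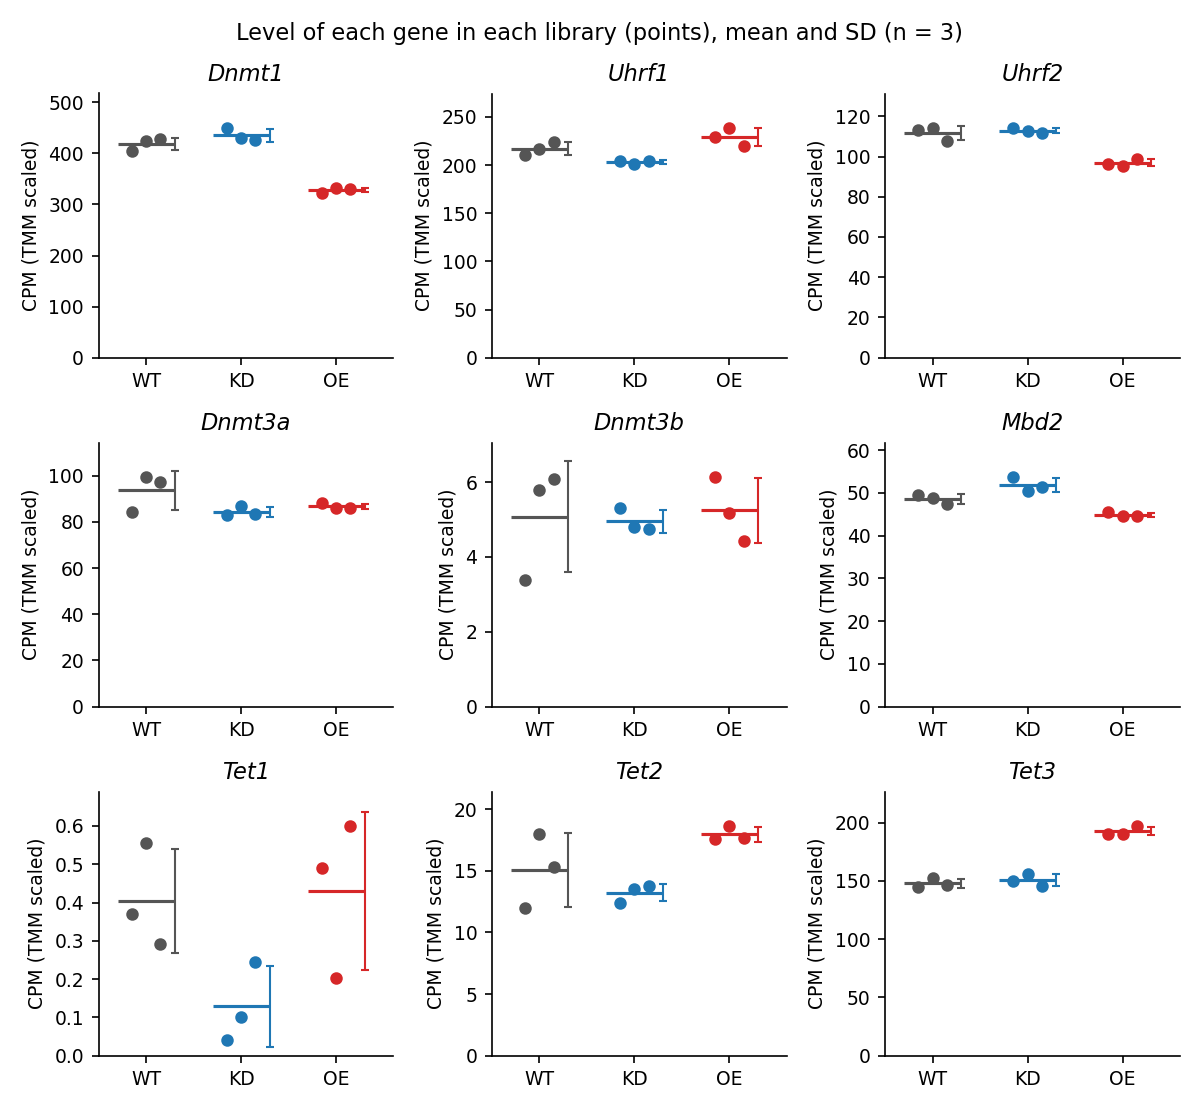
CPM after TMM scaling (vertical axes, each starting at 0) of the 9 genes in the 3 WT, 3 KD and 3 OE libraries; points are libraries, horizontal lines are means and bars are SD. The OE libraries lie below both other groups for Dnmt1 (323.1 to 331.6 CPM) and above both for Tet3 (190.6 to 197.1 CPM).

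The genes lie on 9 different chromosomes of GRCm38 (GENCODE M21). Dnmt1 spans 20907209 to 20959888 of chromosome 9 on the minus strand. Dnmt3a spans 3806007 to 3914443 of chromosome 12, Dnmt3b 153649450 to 153687730 of chromosome 2, Uhrf1 56303321 to 56323486 of chromosome 17 and Uhrf2 30030513 to 30093722 of chromosome 19, all on the plus strand. Tet1 spans 62804570 to 62908996 of chromosome 10, Tet2 133463679 to 133545139 of chromosome 3 and Tet3 83362373 to 83459084 of chromosome 6, all on the minus strand. Exons of an antisense gene overlap those of Dnmt3a and of Tet2, and the use of strand in counting is not given in the sources used here; the antisense gene Dnmt3aos had at most 7 counts in a library and Gm42567, antisense to Tet2, had 0.

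RefSeq's table of promoters (GRCm38.p6), from 250 bases before to 50 after a start, listed 8 of the 9 genes; Mbd2 was not matched. A promoter was called CpG-rich where G and C made up at least 50% of the bases and the CpG count was at least 0.6 of that given by its C and G content, in at least 1 listed start. By this rule 7 of the 8 genes (87.5%) were CpG-rich, against 7324 of 10047 tested protein-coding genes with an entry (72.9%). Counted at the richest listed start of each gene, Tet2 had the most sites, 57, and Tet1 the fewest, 17. The promoters of the 2 genes that differed most firmly between OE and WT are printed 5′ to 3′ on the gene's strand, with each CpG in capitals. For Dnmt1, which has 3 listed starts with 2, 12 and 33 sites, the richest is given, chr9:20952574-20952873, at 69.7% G and C and a CpG ratio of 0.91. Tet3, chr6:83441629-83441928, has 22 sites, and its ratio of 0.58 put it just outside the rule. This is its only listed start, and it lies inside the GENCODE span of Tet3, whose 5′ end is at 83459084.
Dnmt1: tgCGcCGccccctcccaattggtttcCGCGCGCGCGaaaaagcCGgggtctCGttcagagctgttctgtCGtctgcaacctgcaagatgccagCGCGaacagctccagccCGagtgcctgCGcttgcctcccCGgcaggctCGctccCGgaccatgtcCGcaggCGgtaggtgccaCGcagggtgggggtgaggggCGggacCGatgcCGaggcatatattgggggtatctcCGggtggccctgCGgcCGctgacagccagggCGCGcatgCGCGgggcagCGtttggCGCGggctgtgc
Tet3: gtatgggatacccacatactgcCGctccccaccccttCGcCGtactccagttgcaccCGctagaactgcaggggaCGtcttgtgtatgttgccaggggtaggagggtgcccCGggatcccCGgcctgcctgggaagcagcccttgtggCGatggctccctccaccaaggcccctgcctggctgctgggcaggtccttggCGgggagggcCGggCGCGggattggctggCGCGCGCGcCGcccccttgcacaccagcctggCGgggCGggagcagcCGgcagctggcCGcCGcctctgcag

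Knocking down Zbtb46 was compared with WT first. None of the genes for writing or erasing methylation changed past the threshold in KD. Dnmt1, the copying enzyme, was at 449.7, 430.4 and 426.4 CPM in KD and at 405.5, 424.1 and 427.2 in WT, and the groups overlapped (log2 fold change 0.06, SE 0.033, adjusted p = 0.356). Tet3, the most abundant TET transcript, was at 150.2, 156.2 and 145.4 CPM in KD and at 144.9, 152.1 and 146.4 in WT, again overlapping (0.03, SE 0.037, adjusted p = 0.731). In all, 0 of 9 genes were called by edgeR's quasi-likelihood test at an adjusted p under 0.05, where 21.3% of all genes tested were called (11.0% higher and 10.4% lower in KD). At an unadjusted p under 0.05 there were 3 of 9, against 31.9% of all genes. The median change of the 9 was -0.048 on the log2 scale and their median size 0.095, against -0.0022 and 0.162 over all genes.

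Those 3 genes were Dnmt3a, Uhrf1 and Tet1. Dnmt3a, the main de novo methyltransferase here, was at 82.96, 86.95 and 83.32 CPM in KD and at 84.13, 99.45 and 97.24 in WT (log2 fold change -0.15, SE 0.079, adjusted p = 0.0529). The lowest WT library was the one labelled replicate 1, which also had the highest ribosomal share of WT (17.31%, against 7.438% and 10.01%). Without it the change was -0.22 (adjusted p = 0.00212), without WT replicate 2 it was -0.11 (adjusted p = 0.152), and with the median change of its 20 Mb stretch of chromosome removed it was -0.09 (adjusted p = 0.276). Uhrf1, which guides DNMT1 to its substrate, was at 201.2 to 204.5 CPM in KD and 210 to 223.8 in WT; every KD library lay below every WT library, but the change of -0.09 (SE 0.028) had an adjusted p of 0.119. For 3 of the 9 genes the KD and WT ranges were separate (Uhrf1 and Tet1 lower, Mbd2 higher in KD), against 34.7% of all genes.

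Tet1, the TET gene best known from embryonic stem cells, was close to the limit of detection. It had 14, 33 and 13 counts in WT and 2, 4 and 12 in KD, or 0.405 ± 0.135 and 0.129 ± 0.106 CPM (SD, n = 3). All KD libraries lay below all WT libraries (log2 fold change -1.65, SE 0.578, adjusted p = 0.0609). Leaving out KD replicate 3 gave -2.56 (adjusted p = 0.0264), and leaving out KD replicate 1 gave -1.20 (adjusted p = 0.232). Tet2 was at 12.42 to 13.73 CPM in KD and, more widely spread, at 11.97, 17.98 and 15.28 CPM in WT (-0.20, SE 0.176, adjusted p = 0.233), and the change ran from -0.33 without WT replicate 1 (adjusted p = 0.0144) to -0.048 without WT replicate 2 (adjusted p = 0.778). Dnmt3b, Uhrf2 and Mbd2 differed by -0.05, 0.01 and 0.10 on the log2 scale, with adjusted p of 0.901, 0.86 and 0.196.

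The second comparison set OE against WT, which shares its WT libraries with the first. Of the 9 genes, 3 changed: Tet3 rose, and Dnmt1 and Uhrf2 fell, each by less than 1.5-fold. The call rate over all genes was 36.4%, made up of 17.0% higher and 19.5% lower in OE. At an unadjusted p under 0.05 there were 5 of 9, against 43.9%. The ranges of OE and WT were separate for 4 of the 9, the 3 named and Mbd2, and for 45.1% of all genes. The median change was 0.034 and the median size 0.113 on the log2 scale, against 0.002 and 0.22 over all genes.

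Tet3, which oxidises methylcytosine, was at 190.6, 190.6 and 197.1 CPM in OE, above the highest WT library at 152.1 CPM. The means of 192.8 ± 3.78 and 147.8 ± 3.79 CPM (SD, n = 3) differed by 30.4%, a log2 fold change of 0.38 (SE 0.027, adjusted p = 2.71e-07). Of all genes tested, 30.8% changed by more. Tet2, the other TET gene at a measurable level, was at 17.6, 18.64 and 17.63 CPM in OE and overlapped WT because WT replicate 2 stood at 17.98 (log2 fold change 0.24, SE 0.172, adjusted p = 0.0896). Without that library the difference was 0.39 (adjusted p = 0.00289), and without WT replicate 1, the lowest, it was 0.11 (adjusted p = 0.413). Tet1, at 23, 10 and 27 counts in OE, overlapped WT (0.06, SE 0.493, adjusted p = 0.947).

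Dnmt1 was at 323.1, 331.6 and 329.5 CPM in OE, all below the lowest WT library at 405.5. Its mean of 328.1 ± 4.43 CPM was 21.7% under the WT mean of 419 ± 11.7 (log2 fold change -0.35, SE 0.026, adjusted p = 3.24e-07). Uhrf2, the relative of Uhrf1, was at 96.29, 95.37 and 98.73 CPM in OE and at 113.3, 114.2 and 107.6 in WT, without overlap (-0.21, SE 0.031, adjusted p = 0.000561). Uhrf1 itself was at 220.2 to 238.6 CPM in OE and 210 to 223.8 in WT, which overlapped (0.08, SE 0.043, adjusted p = 0.142). Mbd2, the methyl-CpG reader, on the plus strand of chromosome 18 from 70568189 to 70626131, was lower in each OE library (44.48 to 45.44 CPM) than in any WT library (47.28 to 49.49), with an adjusted p of 0.0879. The de novo genes Dnmt3a and Dnmt3b overlapped between OE and WT, at 0.93-fold and 1.02-fold of WT (adjusted p = 0.115 and 0.909).

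**Figure D2:**
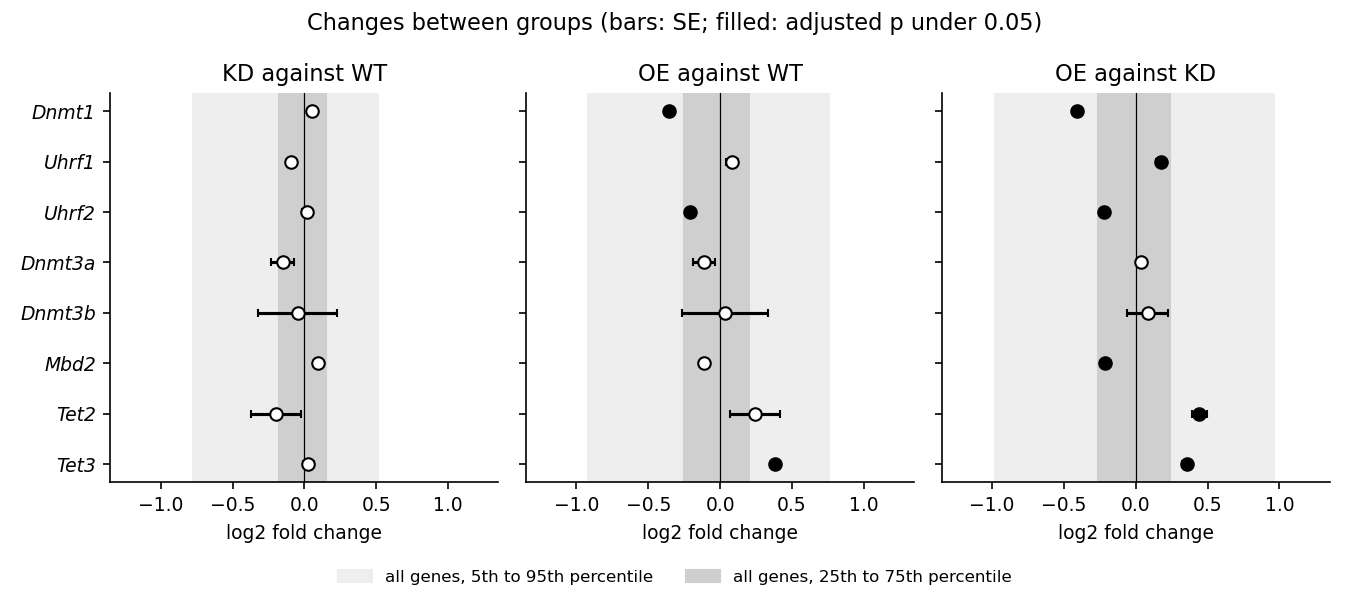
Log2 fold change (horizontal axes) of 8 genes in the 3 comparisons, with SE as bars and filled points for an adjusted p under 0.05; grey bands hold the middle 90% and 50% of all 16955 genes. Tet1 (-1.65, 0.06 and 1.71) is left out because of its low counts; Dnmt1 at -0.35 and Tet3 at 0.38 lie outside the inner band in OE against WT.

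OE was then set directly against KD, which is also the test of whether the changes of the 2 modified lines from WT differ. A response to Zbtb46 and other differences between the lines cannot be told apart in this comparison. Here 7 of 9 genes differed, against 41.5% of all genes (19.4% higher and 22.1% lower in OE), and the ranges were separate for 6 of 9, against 55.4%. At an unadjusted p under 0.05 the same 7 stood against 47.8% of all genes, and a test of any difference among the 3 groups also called 7 of the 9, against 47.7%. All 3 TET genes and Uhrf1 were higher in OE, and Dnmt1, Uhrf2 and Mbd2 were lower. Tet3 differed by 0.36 (SE 0.034, adjusted p = 4.81e-07) and Tet2 by 0.44 (SE 0.053, adjusted p = 0.0029), with no OE library of either gene inside the range of KD. Tet1 differed by 1.71 (SE 0.675, adjusted p = 0.0289), but its groups overlapped and the call was lost when replicate 1 or 2 of KD, or replicate 1 or 3 of OE, was left out, with adjusted p of 0.0832 to 0.139.

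Among the copying genes, Dnmt1 was lower in OE than in KD by 0.41 on the log2 scale (log2 fold change -0.41, SE 0.026, adjusted p = 2.45e-08). Uhrf1 differed the other way, at 0.18 (SE 0.034, adjusted p = 0.00173), a call that scaling by library totals alone removed (adjusted p = 0.0847). Uhrf2 was lower in OE (-0.22, SE 0.018, adjusted p = 0.000216), as was Mbd2 (-0.21, SE 0.028, adjusted p = 0.00191). Dnmt3a and Dnmt3b, the de novo enzymes, differed by 0.04 and 0.08, with adjusted p of 0.619 and 0.763.

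Ratios of counts within a library do not depend on scaling; these pairs were chosen after their values were seen. Counts of Dnmt1 over those of Uhrf1 stood at 1.93, 1.95 and 1.91 in WT, 2.21, 2.14 and 2.08 in KD, and 1.41, 1.39 and 1.5 in OE. The groups were fully separate, with KD highest and OE lowest. Counts of Tet3 over those of Dnmt1 averaged 0.353 ± 0.0089 in WT (SD, n = 3), with 0.346 ± 0.015 for KD and 0.588 ± 0.012 for OE, a 1.67-fold higher eraser-to-copier ratio in OE than in WT. The exact two-sided permutation test gave p = 0.1 wherever the groups were separate, which is the smallest value that 3 against 3 allows, and p = 0.6 for the Tet3 over Dnmt1 ratio of KD against WT.

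**Figure D3:**
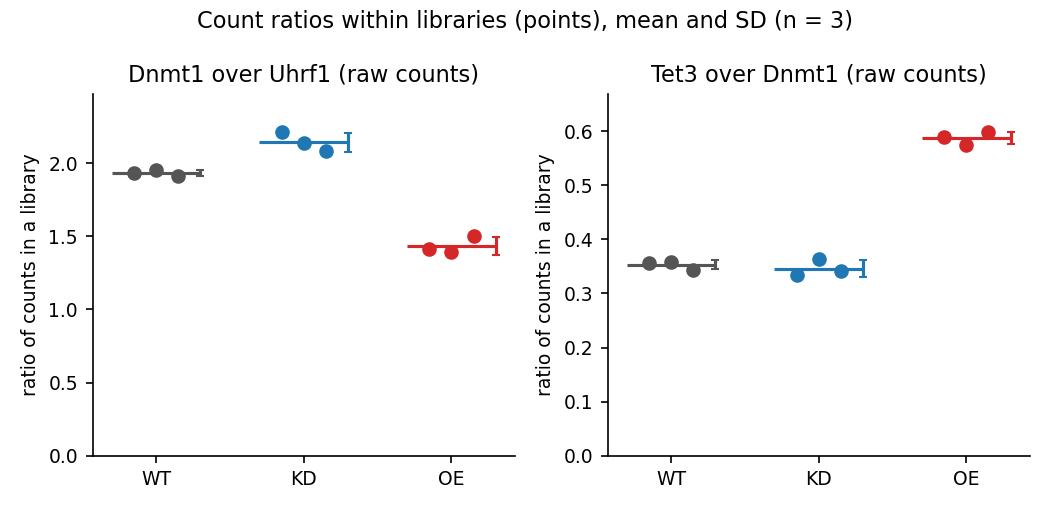
Ratio of raw counts of Dnmt1 to Uhrf1 (left) and of Tet3 to Dnmt1 (right) in each library, with the mean and SD of each group of 3; both axes start at 0. OE stands apart from WT and KD in both panels, at 1.43 ± 0.057 and 0.588 ± 0.012.

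Dnmt1 fell together with its chromosomal neighbours. Of the 20 tested genes nearest to it, all within 0.33 Mb, 16 were lower in OE than in WT at an adjusted p under 0.05 and 0 were higher, with a median log2 fold change of -0.51. Within 2 Mb, 50 of 75 genes were lower and 0 higher, and within 10 Mb 83 of 131 were lower and 2 higher, where 19.5% and 17.0% of all genes were lower and higher. The 20 Mb window that holds Dnmt1, with 143 tested genes, had a median of -0.35. Library by library, Dnmt1 stood at -0.37, -0.34 and -0.35 relative to the WT mean in OE, and the median of its 142 window neighbours at -0.36, -0.33 and -0.37. In KD the same neighbours stood at 0.12 to 0.14, against 0.03 to 0.10 for Dnmt1.

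With the median of each 20 Mb window removed, the OE difference of Dnmt1 from WT was -0.0046 (adjusted p = 0.955), and its difference from KD was 0.05 (adjusted p = 0.377). With 5 Mb windows, chosen after seeing the data, these values were 0.03 (adjusted p = 0.591) and 0.04 (adjusted p = 0.513). The fall of Dnmt1 was thus the size of the median of its 20 Mb window, and smaller than the median of the 47 genes within 1 Mb (-0.45) or of the 20 nearest. What lowered the region was not tested.

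In OE against WT, Tet3 did not share such a region. Of its 20 nearest genes, within 0.31 Mb, 3 were higher and 1 lower in OE than in WT, with a median of -0.003, and its difference was 0.37 (adjusted p = 6.1e-07) with 20 Mb medians removed and 0.38 (adjusted p = 3.8e-07) with 5 Mb medians removed. Uhrf2 likewise lay in a window with a median of 0.07 and differed by -0.28 (adjusted p = 2.42e-05) once that was removed. Under the same 20 Mb correction 5 of the 9 genes, and 5534 of all 16955, were called in OE against WT. Dnmt1 was lost, and Dnmt3a (-0.17, adjusted p = 0.021), Uhrf1 (0.13, adjusted p = 0.0235) and Mbd2 (-0.19, adjusted p = 0.00667) were gained. Of these 3, Mbd2 alone was also called with 5 Mb windows (adjusted p = 0.0294). The higher Tet2 of OE against KD was 0.48 with 20 Mb windows, but with 5 Mb windows it was 0.22 and not called (adjusted p = 0.128). For Tet3 in OE against KD, the 20 nearest genes had a median of 0.225, with 5 higher and 2 lower in OE. The 153 genes within 10 Mb of Tet3 had a median of 0.023, with 24 higher and 25 lower.

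**Figure D4:**
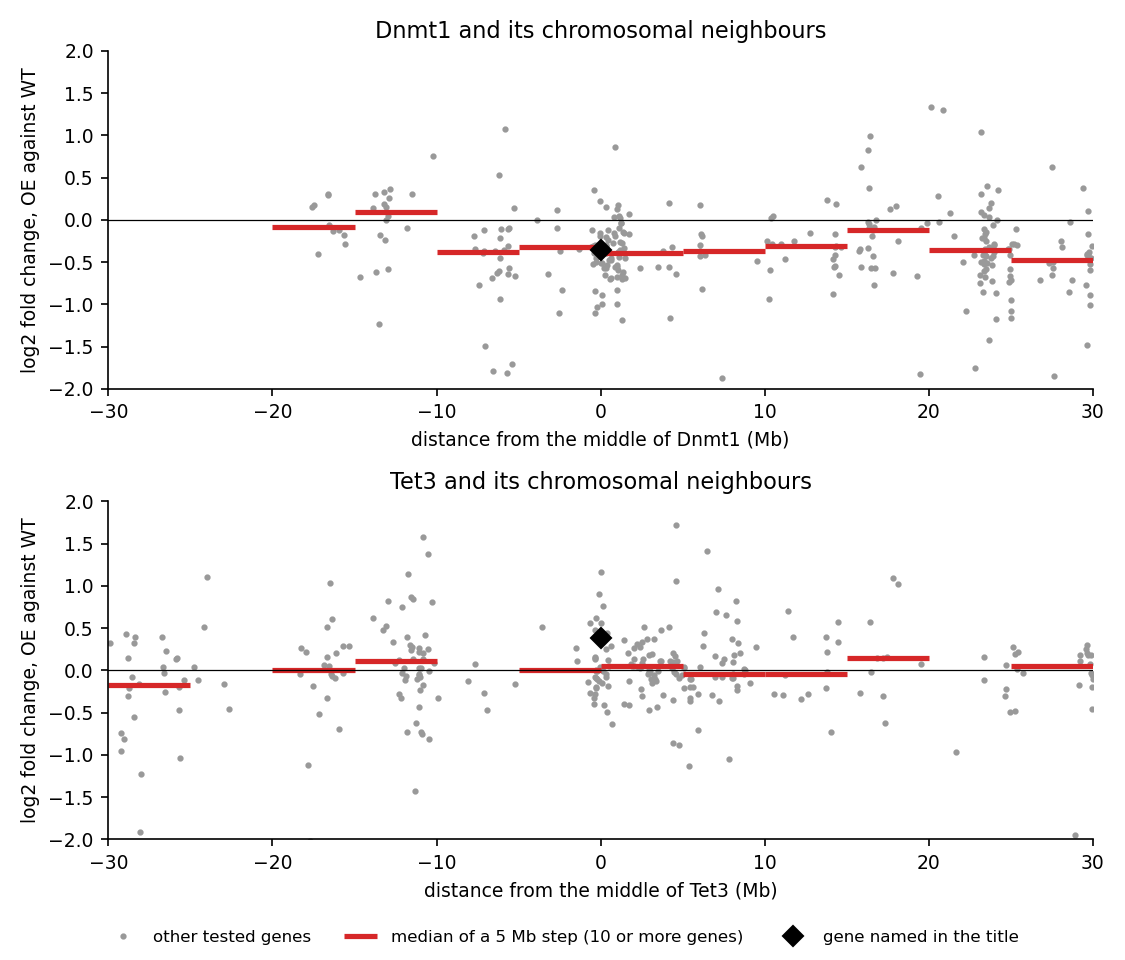
Log2 fold change of OE against WT (vertical axis) of tested genes against their distance in Mb from Dnmt1 (top) and Tet3 (bottom); red lines are medians of 5 Mb steps with at least 10 genes, and the diamond is the named gene; genes beyond 2 on either side are not drawn. Dnmt1, at -0.35, sits close to the medians of the 5 Mb steps on either side, and Tet3, at 0.38, above a median near 0.

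For each of the 3 genes with the smallest p for any difference, the 2 genes with the most similar profile over the 9 libraries were found among 8976 genes of at least 10 CPM, by Euclidean distance of centred log2 CPM. Those of Dnmt1 were Rab11fip3 (distance 0.0942) and Tpbg (0.101), against a median distance of 0.652 over the genes compared. Those of Tet3 were Aldh18a1 (0.102) and Jak1 (0.111), against 0.626. Those of Uhrf2 were Setd7 (0.0837) and B4galt1 (0.0885), against 0.496.

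The partners of these enzymes were described from lists, by the number called in each direction. Over all genes tested, 11.0% rose and 10.4% fell in KD, and 17.0% rose and 19.5% fell in OE. Those shares are the background for this list and each one below. Among 8 tested maintenance partners, 2 rose and 0 fell in KD, and 1 rose and 0 fell in OE. Hells, a chromatin remodeller needed for full methylation, rose by 0.19 in KD (SE 0.091, adjusted p = 0.0221), Zfp57, which protects methylation at imprinted genes, by 0.40 (SE 0.0995, adjusted p = 0.0351), and Usp7, a deubiquitinase that binds DNMT1 and UHRF1, by 0.17 in OE (SE 0.05, adjusted p = 0.00548). The list's medians were -0.027 in KD and -0.0077 in OE.

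Among 9 tested partners of de novo methylation, 1 rose and 1 fell in KD, and 5 rose and 1 fell in OE, with medians of -0.015 and 0.149. Nsd1, which lays the H3K36 methylation that DNMT3A reads, rose by 0.43 in OE (SE 0.079, adjusted p = 2.17e-06), from 85.1 ± 7.52 to 115 ± 4.04 CPM. Kdm1a, a histone demethylase, rose by 0.48 in OE (adjusted p = 1.53e-07) in a window with a median of 0.35, and by 0.13 once that was removed (adjusted p = 0.0516). In KD, Setdb1, an H3K9 methyltransferase, rose by 0.15 (adjusted p = 0.0331), and Kdm2b, which binds CpG islands, fell by 0.23 (adjusted p = 0.00869).

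Of 16 methyl-CpG readers and members of their complexes, 0 rose and 4 fell in KD, and 7 rose and 2 fell in OE, with medians of -0.011 and 0.122. Hdac1, a deacetylase of the complex that MBD2 joins, was at 109 ± 3.21 CPM in WT, 79.1 ± 2.68 in KD and 144 ± 3.26 in OE. It fell by 0.46 in KD (SE 0.037, adjusted p = 2.19e-07) and rose by 0.41 in OE (SE 0.031, adjusted p = 2.29e-07). Its window, on chromosome 4 as for Kdm1a, had medians of -0.18 in KD and 0.35 in OE. With these removed the KD change was -0.28 (adjusted p = 0.00012) and the OE change 0.06 (adjusted p = 0.339). Mta1, of the same complex, fell by 0.25 in KD (adjusted p = 0.000407). Zbtb38, a zinc finger reader of methylated CpG, fell in OE from 24.5 ± 1.13 to 16 ± 0.0804 CPM (log2 fold change -0.62, SE 0.039, adjusted p = 2.36e-07).

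On the eraser side, 0 of 13 repair and demethylation genes rose and 1 fell in KD, and 4 rose and 2 fell in OE, with medians of -0.069 and 0.077. Gadd45a and Gadd45b, stress genes linked to active demethylation, rose in OE by 0.61 (SE 0.111, adjusted p = 0.00158) and 0.25 (SE 0.029, adjusted p = 0.00124), while Gadd45g, named for its kinship to these 2 after its values were seen, fell by 0.30 in OE (SE 0.141, adjusted p = 0.0132). Parp1, a DNA repair factor, fell by 0.13 in KD (adjusted p = 0.0246). Of 12 TET cofactor and partner genes, 1 rose and 1 fell in KD, and 2 rose and 5 fell in OE, with medians of -0.053 and -0.102. Idh1, an isocitrate dehydrogenase that makes the 2-oxoglutarate TET enzymes consume, rose by 0.56 in OE (SE 0.017, adjusted p = 3.35e-08). Sdha, a subunit of the enzyme that clears the TET inhibitor succinate, fell by 0.54 in OE (adjusted p = 1.17e-09) in a window with a median of -0.42, and by 0.13 with that removed (adjusted p = 0.0207). In KD, Ogdh, which consumes 2-oxoglutarate, fell by 0.12 (adjusted p = 0.0407), a call lost with its window median removed (adjusted p = 0.181).

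Of 13 genes that supply methyl groups, 2 rose and 1 fell in KD, and 5 rose and 2 fell in OE, with medians of 0.077 and 0.042. Mthfd2, of mitochondrial folate metabolism, rose in both, by 0.21 in KD (SE 0.016, adjusted p = 0.000498) and 0.44 in OE (SE 0.023, adjusted p = 1.45e-08). Ahcyl1, a relative of the enzyme that clears S-adenosylhomocysteine, fell in OE by 0.58 (SE 0.029, adjusted p = 1.32e-10), and Mtrr, which reactivates methionine synthase, rose in KD by 0.22 (adjusted p = 0.00426), or 0.09 with its window median of 0.13 removed (adjusted p = 0.27). Over all genes the median changes were -0.0022 in KD and 0.002 in OE.

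Dnmt1 and Uhrf1 are transcribed most in S phase, so 25 S phase and proliferation genes were read beside them. In KD 5 rose and 5 fell, and in OE 7 rose and 7 fell, with medians of -0.00061 and 0.025, where 11.0% and 10.4% of all genes rose and fell in KD and 17.0% and 19.5% in OE. With 20 Mb window medians removed, 5 rose and 2 fell in KD, and 6 rose and 3 fell in OE. Their summed level was 4850 to 5100 CPM in WT, 5110 to 5140 in KD and 5040 to 5210 in OE. Rrm1 and Top2a rose in KD by 0.24 and 0.20 (adjusted p = 0.000267 and 0.00324). Cdt1 and Gins2, replication licensing and helicase factors, fell in OE by 0.48 and 0.50 (adjusted p = 4.92e-09 and 1.57e-07), both in windows with a median of -0.44; with these removed they stood at -0.04 and -0.06 (adjusted p = 0.489 and 0.426).

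Genes fully off in one line and on in another were taken as those with at most 3 counts in every library of one group and, in the other, over 3 counts in every library and a mean of at least 1 CPM. There were 34 such genes, 26 of them protein-coding, and none of the 9 methylation genes was among them. Against WT, 13 genes were on and 8 off in KD, and 9 were on and 0 off in OE; against KD, 18 were on and 4 off in OE. Tet1, in KD at 2, 4 and 12 counts, came nearest to the limit among the 9 genes, but its WT level was under 1 CPM.

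Scn2b, a sodium channel subunit, had 0 counts in all WT and all OE libraries and 578 to 788 counts in KD (15.3 ± 0.819 CPM, SD, n = 3). Med12l, a Mediator subunit gene, was at no more than 2 counts in WT and at 15.4 ± 0.762 CPM in KD and 13.7 ± 1.04 in OE, and Actc1, cardiac actin, was at 0 counts in WT and at 7.21 ± 0.642 and 5.39 ± 0.854 CPM. These 2 genes were therefore on in both modified lines. Duoxa2, a maturation factor of a dual oxidase, was on only in OE among these groups, at 3.71 ± 0.191 CPM against at most 2 counts in any WT or KD library.

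The genes off in KD were led by Ntn1, the guidance cue netrin, at 6.58 ± 0.822 CPM in WT, no more than 2 counts in KD and 21.3 ± 1.08 CPM in OE. Prkd1, a protein kinase, was at 2.98 ± 0.601 CPM in WT, 0 counts in KD and 11.4 ± 1.48 CPM in OE. Glul, glutamine synthetase, was at 2.85 ± 0.159 CPM in WT, no more than 2 counts in KD and 5.67 ± 0.569 CPM in OE. All 3 genes had their highest level in OE. Off in OE but on in KD, besides Scn2b, was the dystrophin gene Dmd, at 1.06 ± 0.222 CPM in KD, 0 counts in OE and 0.499 ± 0.173 CPM in WT.

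Promoter CpG content was read for the 22 switched protein-coding genes with a RefSeq entry; 11 of them (50%) were CpG-rich, against the 72.9% of tested protein-coding genes given above. The share was 1 of 5 for genes on in KD, 5 of 7 for genes off in KD, 2 of 3 for genes on in OE against WT, 10 of 16 for genes on in OE against KD and 0 of 2 for genes off in OE against KD. These sets overlap, and every gene off in KD against WT was also on in OE against KD. The median number of CpG sites was 16 over the 22 genes and 22 over the tested protein-coding genes. Prkd1 and Scn2b are printed because they stand near the ends of this range, 5′ to 3′ on the gene's strand with each CpG in capitals: Prkd1, chr12:50649200-50649499 on the minus strand, has 43 sites at 77.3% G and C, and Scn2b, chr9:45117626-45117925 on the plus strand, has 2 sites at 38.3%. Of the others named, Med12l has 30 sites, Duoxa2 19, Glul 17, Actc1 7 and the 2 listed starts of Dmd 2 and 14; Ntn1 was not matched.
Prkd1: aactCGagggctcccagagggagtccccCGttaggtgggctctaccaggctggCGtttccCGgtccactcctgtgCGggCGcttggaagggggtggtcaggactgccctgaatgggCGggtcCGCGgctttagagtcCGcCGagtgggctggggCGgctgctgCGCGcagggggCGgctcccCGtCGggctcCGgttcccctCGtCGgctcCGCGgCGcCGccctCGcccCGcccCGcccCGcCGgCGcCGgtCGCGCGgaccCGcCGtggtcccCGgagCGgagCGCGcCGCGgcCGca
Scn2b: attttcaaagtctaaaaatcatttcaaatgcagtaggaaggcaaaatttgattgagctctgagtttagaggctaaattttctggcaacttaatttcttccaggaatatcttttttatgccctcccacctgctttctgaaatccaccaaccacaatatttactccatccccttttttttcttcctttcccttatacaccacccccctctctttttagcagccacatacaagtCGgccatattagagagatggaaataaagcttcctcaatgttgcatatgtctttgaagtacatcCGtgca

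A list of germline genes held to be silenced by promoter methylation in body cells was examined for a parallel. Of 22 such genes, 6 passed the filter on low counts and 10 had at most 3 counts in every library. Taf7l, a germline member of the TFIID family, rose in both modified lines, from 0.0437 ± 0.0096 CPM (SD, n = 3; at most 2 counts in a library) in WT to 0.492 ± 0.144 CPM in KD (adjusted p = 0.000155) and 0.571 ± 0.0652 CPM in OE (adjusted p = 2.56e-05). Tdrkh, a piRNA pathway factor, was not silent in any group, so its change does not bear on silenced genes. It fell in OE by 0.48 (SE 0.078, adjusted p = 7.85e-05). No other tested gene of the list was called in either comparison with WT. The list summed to 20.3 to 22.3 CPM in WT, 21.1 to 21.3 in KD and 16.1 to 18.9 in OE, most of it Tdrkh, at 17.7 ± 1.04 CPM in WT, 17.2 ± 0.625 in KD and 12.7 ± 0.927 in OE.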

How the data were processed

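Poly-A RNA from 9 libraries was sequenced in pairs, per the labels' protocols. The deposited table holds whole-number counts per Ensembl gene, not normalised, judged from the values and column names. GRCm38 and mm10 are named in the submitters' processing notes; the aligner, counter and use of strand are not given in the sources used here. Its 55774 rows name 55487 genes, since 168 genes repeated on 455 rows were counted once. Of these, 55227 matched GENCODE M21 by Ensembl identifier, which gave positions and exon lengths. Genes kept by filterByExpr were scaled with TMM and fitted together in edgeR 4.0.16 (quasi-likelihood, group as the only term, robust) in R 4.3.3; the Benjamini-Hochberg adjustment ran over 16955 genes with a threshold of 0.05. Each SE was built from group SDs of CPM on the log2 scale, prior count 2. Depth limits Tet1 most. Window medians entered as offsets. Alternatives used DESeq2 1.42.0, limma 3.58.1, other scalings and filters, a replicate block, a minimum fold of 1.5, and each library left out. The procedure was tested on simulated data. Text names all 9 genes, the 2 smallest p per list and comparison, and the 3 highest switched genes per comparison and direction without predicted-gene names; 2 genes that this rule names are not reported here. Genes and lists were chosen with earlier results of these data known. Tables were joined with pandas 2.3.3 under Python 3.11.15, and plots drawn with matplotlib 3.10.9.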

Additional observations from a re-analysis of the deposited data

How the results depend on the processing

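Of 564 values of the 9 genes recomputed under alternatives, 506 kept their direction and side of the threshold, 17 lost and 16 gained a call, and 25 changed sign. The values that changed sign and the counts that moved follow; the cause was not tested. Against a minimum fold change of 1.5 (edgeR's glmTreat), 274 genes were called in KD, 794 in OE and 1331 between OE and KD, and 0 of the 9 in each; the smallest adjusted p of the 9 was 0.202 for Tet1 in OE against KD. In KD against WT, 2 of the 9 were called with no filter beyond 1 count (Dnmt3a and Tet1), 1 with at least 10 counts in every library (Dnmt3a) and 1 with limma-voom (Tet1), against 0 with edgeR and DESeq2. In OE against WT, 5 of the 9 and 5534 of all genes were called with 20 Mb window medians removed, and Tet2 was called with no filter beyond 1 count (0.23, adjusted p = 0.0472). Scaling by library totals alone gave 885 genes higher and 1588 lower in KD (1859 and 1758 with TMM), 1623 and 3506 in OE (2874 and 3300), and Uhrf2 -0.020 and Tet3 -0.0098 in KD and Dnmt3b -0.034 and Tet1 -0.010 in OE. Tet1 in OE stood at -0.063 with limma-voom. With 20 Mb medians removed, Dnmt1 stood at -0.051 and Uhrf2 at -0.0057 in KD, and Dnmt1 at 0.047 and Dnmt3a at -0.075 in OE against KD. With 5 Mb medians removed, chosen after seeing the data, these were -0.0033, -0.014, 0.036 and -0.038, and Dnmt1 in OE against WT was 0.033.

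Replicate numbers are shared between groups, but deviations of the 9 same-number pairs correlated only at -0.0421 to 0.049, and 2 of 9 libraries correlated best with their own number, so the numbers were not treated as a pairing. With the replicate block 3574, 6111 and 6969 genes were called in KD against WT, OE against WT and OE against KD, and 0, 4 and 7 of the 9; Tet2 rose in OE (0.26, adjusted p = 0.0368) and Tet1 in OE stood at -0.0099. Leaving out 1 library at a time gave 2537 to 4699, 5228 to 6440 and 6072 to 7604 genes, and 0 to 2, 3 to 4 and 6 to 7 of the 9; in OE against WT, Dnmt3a was called without WT replicate 1 (-0.18, adjusted p = 0.00468) and Mbd2 without WT replicate 3 (-0.14, adjusted p = 0.0444). Over these fits the change in KD ran from -0.26 to 0.089 for Dnmt3b, from -0.010 to 0.032 for Uhrf2 and from -0.0021 to 0.051 for Tet3; in OE against WT it ran from -0.18 to 0.16 for Dnmt3b and from -0.25 to 0.41 for Tet1, and in OE against KD from -0.045 to 0.19 for Dnmt3b. The signs of these small changes are therefore not settled.

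Switched genes depended on their limits. With at most 10 counts allowed in the off group, 23 genes were off in KD, 14 on and 11 off in OE, and 52 on and 14 off in OE against KD. With at least 5 CPM in the on group, 5 were on and 1 off in KD, 3 on in OE, and 4 on and 1 off in OE against KD. Leaving out 1 library gave 0 to 1 genes off in OE against WT, the 1 coming without OE replicate 2.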

Other observations

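Along the chromosome of Dnmt1, medians of OE against WT were taken over 5 Mb steps by distance from the gene. The step holding Dnmt1 had 80 genes and a median of -0.375 on the log2 scale, and the steps centred 25 to 55 Mb beyond it, with 22 to 71 genes each, had medians between -0.451 and -0.332. Between them, the steps at 5, 10 and 15 Mb, with 17, 11 and 35 genes, had medians of -0.369, -0.283 and -0.314. The step at 20 Mb, with 16 genes, was at -0.069. On the other side, the step at -5 Mb, with 32 genes, was at -0.386. The steps at -10 and -15 Mb, with 5 and 24 genes, were at -0.102 and -0.028. The steps centred at 65 to 90 Mb had medians between -0.04 and 0.17, and the steps at 95 and 100 Mb, with 29 and 63 genes, had medians of -0.407 and -0.464. The step at 60 Mb, with 22 genes, was at -0.187 in OE and 0.137 in KD. The KD medians at 25 to 55 Mb were all above 0, from 0.033 to 0.266. They were also above 0 at 20 and 65 Mb (0.202 and 0.15), where OE was at -0.069 and 0.045. The KD medians at -15, 85 and 90 Mb were below 0, at -0.045, -0.016 and -0.027. These are values only, and no explanation of them was tested.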
